A study of Mus musculus with 22 samples.

Results

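The 50 genes described here encode proteins that drive mitosis: the kinases and cyclins of mitotic entry, the chromosomal passenger complex, the spindle checkpoint, kinetochore proteins, spindle kinesins, the cytokinesis machinery and the condensin subunits. They were chosen by that function, as a list, with earlier results of these data known, and sorted into 10 roles. All 50 were among the 55011 genes of the count table and all 50 passed the filter on low counts, which left 15462 genes tested.

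The libraries came from sorted mouse CD4+ T cells of lymph nodes. Every library carries the scurfy label (C57BL/6 strain, FOXP3 knockout), scurfy being the mouse line in which loss of Foxp3 leaves the animals without functional regulatory T cells. In the FOXP3 group (codes F1, F2, F5, N2 and N3) CD4+ T cells of 10-day-old scurfy mice carried a human FOXP3 vector, and in the LNGFR group (G1, G2 and G3) the empty vector; both kinds of engineered cells were sorted as LNGFR+, by a surface marker. In the WT Treg group (E2, G4 and L1) the sorted cells were transferred CD45.1+ CD4+CD25+ cells; the scurfy label of these libraries was taken to describe the recipient. All recipients were scurfy mice given cyclophosphamide at 50 mg/kg at 10 days of age and cells at day 14. Human IL-2 followed, for which the labels give 1000 IU/g daily for 5 days. For each library 1000 cells were sorted at day 50. Each code has 2 libraries, which were summed, so that n is 5, 3 and 3 codes. No label ties a code to 1 animal or to a pool, so p-values measure the spread between codes. The letters in the codes are not explained, and since LNGFR codes all start with G and FOXP3 codes with F or N, any difference that the letter marks cannot be told apart from the vector.

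Dividing cells switch most of these genes on together in G2 phase and shut them off after division, so in a sorted population their transcripts are widely used as a readout of how many cells are in cycle. Cyclin B1 with Cdk1 starts mitosis, the Aurora and Polo-like kinases build and correct the spindle, the checkpoint kinases Bub1 and Ttk delay anaphase until every kinetochore is attached, and Cdc20 activates the anaphase-promoting complex. In regulatory T cells division is fed by IL-2 and by antigen receptor signals. In bulk libraries a smaller share of dividing cells and less of each transcript per dividing cell cannot be told apart.

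Many promoters of this class carry CCAAT boxes, bound by NF-Y, and a cell-cycle homology region (CHR), bound by the MuvB complex. The 300 bases from 250 before to 50 after the annotated start were taken from RefSeq (GRCm38.p6), where 42 of the 50 genes had a window. The letters CCAAT, read on both strands, stood in 31 of the 42 windows (73.8%) against 41.1% of the 27025 genes in that table. TTTGAA, the commonest CHR spelling, also stood in 31 (73.8% against 20.2%), and TTTAAA, a second spelling whose reverse complement is itself, in 9 (21.4% against 14.9%). At least 1 of both spellings was present in 34 windows (81.0% against 30.6%), and CCAAT together with either in 29 (69.0% against 12.2%). A match is a string of letters and not a measured binding site. The 6 windows below were chosen after the values were seen and are printed because the results below turn on these genes. They are those of Hmmr and Bub1, Ccnb1 and Cdc20, and Bub3 and Pttg1, which differed least between the groups. Each runs 5′ to 3′ on the gene's strand, and capitals mark CCAAT (or ATTGG, its reverse complement) and the CHR letters (TTTGAA, its reverse complement TTCAAA, or TTTAAA).
Hmmr: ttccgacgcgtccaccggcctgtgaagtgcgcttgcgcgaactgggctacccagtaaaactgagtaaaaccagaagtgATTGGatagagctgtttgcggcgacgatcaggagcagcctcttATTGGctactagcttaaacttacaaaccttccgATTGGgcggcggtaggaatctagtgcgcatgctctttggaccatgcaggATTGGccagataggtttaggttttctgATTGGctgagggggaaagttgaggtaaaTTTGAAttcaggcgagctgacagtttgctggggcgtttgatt
Bub1: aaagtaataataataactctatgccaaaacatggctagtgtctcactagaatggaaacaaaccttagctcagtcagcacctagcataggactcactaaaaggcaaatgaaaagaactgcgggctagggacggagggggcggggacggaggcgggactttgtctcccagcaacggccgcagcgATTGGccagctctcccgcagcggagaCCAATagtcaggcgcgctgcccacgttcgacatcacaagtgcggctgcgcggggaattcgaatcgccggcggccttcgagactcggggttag
Ccnb1: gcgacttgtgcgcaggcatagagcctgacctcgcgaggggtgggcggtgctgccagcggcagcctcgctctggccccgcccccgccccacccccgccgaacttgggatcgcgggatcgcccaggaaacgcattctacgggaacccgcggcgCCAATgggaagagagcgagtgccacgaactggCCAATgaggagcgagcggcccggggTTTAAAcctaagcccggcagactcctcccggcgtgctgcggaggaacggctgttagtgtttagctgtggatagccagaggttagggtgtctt
Cdc20: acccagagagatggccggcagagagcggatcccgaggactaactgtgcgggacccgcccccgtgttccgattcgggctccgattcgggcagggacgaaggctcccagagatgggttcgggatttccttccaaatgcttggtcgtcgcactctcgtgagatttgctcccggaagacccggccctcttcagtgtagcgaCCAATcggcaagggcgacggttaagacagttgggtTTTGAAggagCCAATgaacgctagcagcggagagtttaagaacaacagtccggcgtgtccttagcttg
Bub3: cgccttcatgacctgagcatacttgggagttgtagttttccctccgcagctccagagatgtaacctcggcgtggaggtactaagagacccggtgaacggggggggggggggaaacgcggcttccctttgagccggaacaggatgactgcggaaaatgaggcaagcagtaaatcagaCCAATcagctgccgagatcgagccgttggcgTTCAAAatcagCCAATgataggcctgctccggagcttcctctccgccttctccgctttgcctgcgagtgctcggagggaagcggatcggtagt
Pttg1: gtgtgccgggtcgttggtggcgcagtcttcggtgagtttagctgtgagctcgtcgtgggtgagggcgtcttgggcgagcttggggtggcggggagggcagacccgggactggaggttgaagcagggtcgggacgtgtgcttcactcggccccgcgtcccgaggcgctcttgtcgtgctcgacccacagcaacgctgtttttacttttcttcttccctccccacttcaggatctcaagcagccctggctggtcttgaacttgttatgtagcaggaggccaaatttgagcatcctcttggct
Hmmr lies on the minus strand and its window is chr11:40733388-40733687, with 5 CCAAT letters and TTTGAA just after the start. Bub1, also on the minus strand (chr2:127831810-127832109), has 2 CCAAT and none of the CHR letters searched. Ccnb1 (chr13:100786437-100786736, minus strand) has 2 CCAAT followed by TTTAAA. Cdc20 (chr4:118437294-118437593, minus strand) has TTTGAA between 2 CCAAT. The window of Bub3 (chr7:131560120-131560419, plus strand, the first of 2 annotated starts) also has 2 CCAAT and TTCAAA. That of Pttg1 (chr11:43425932-43426231, minus strand) has none of these letters. It lies whole inside the GENCODE gene (chr11:43420250-43426251), so the bases upstream of that gene were not searched for Pttg1. Bub3 and Cdc20 both hold CCAAT and TTTGAA or its reverse complement. The part of these letters in the levels of the genes was not tested.

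Together the 50 genes took more of the reads in the FOXP3 libraries than in the LNGFR libraries, with 1 exception. Their summed level, in CPM (counts relative to the library size scaled by TMM factors), was 4052 in F1, 3987 in F2, 5055 in F5 and 5818 in N2, but 1433 in N3. In the LNGFR group it was 1747, 1481 and 1547 for G1, G2 and G3, and in the WT Treg group 1370 in E2, 2540 in G4 and 3046 in L1. F1, F2, F5 and N2 thus stood above every other code, N3 stood below all 3 LNGFR codes, and the WT Treg codes spread from below the LNGFR codes to well above them. The group means were 4069 ± 1657 for FOXP3 (SD, n = 5), 1592 ± 139 for LNGFR (n = 3) and 2319 ± 860 for WT Treg (n = 3).

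**Figure D1:**
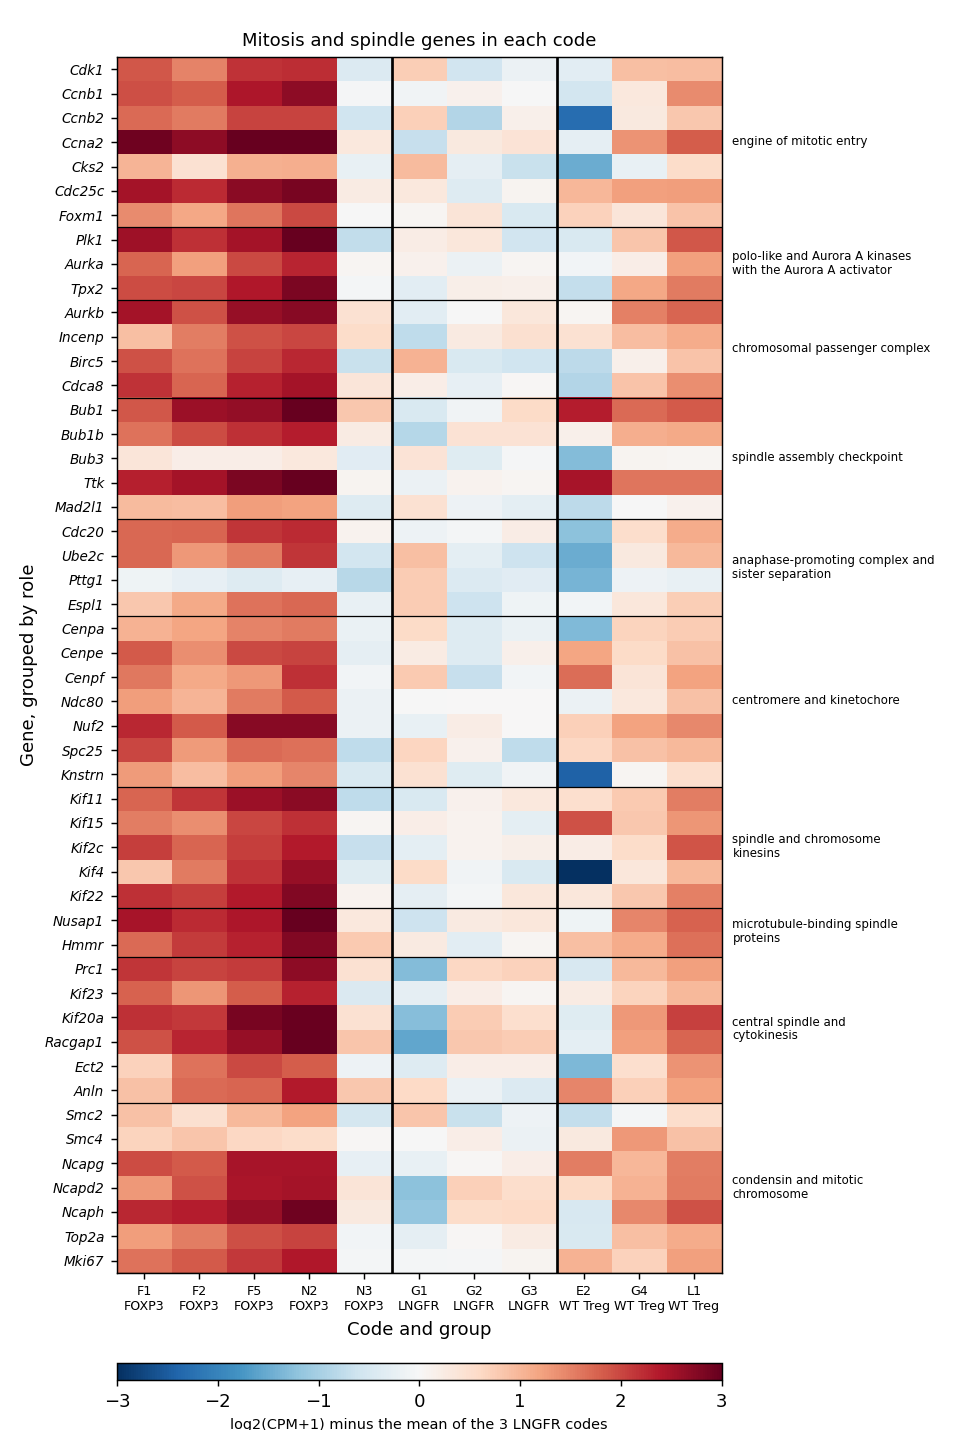
Level of each of the 50 genes (rows, grouped by role) in each of the 11 codes (columns, with their group), as log2(CPM+1) minus the mean of the 3 LNGFR codes. F1, F2, F5 and N2 are red in nearly every row, N3 is near white, and WT Treg codes G4 and L1 are paler red than those 4.

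Set against the mean of the LNGFR codes gene by gene, the median ratio over the 50 genes was 3.34 in F1, 3.26 in F2, 4.29 in F5, 5.04 in N2 and 0.942 in N3. It was 0.865 in E2, 1.72 in G4 and 2.29 in L1. N2 was the highest FOXP3 code for 43 of the 50 genes, and N3 the lowest for all 50. F1, F5 and N2 each lay above every LNGFR code for 48 genes and F2 for 46, whereas N3 did so for 7 genes, lay within the LNGFR range for 31 and below it for 12. Among the WT Treg codes L1 lay above every LNGFR code for 43 genes, G4 for 37 and E2 for 17. Such counts for single codes were not made over all genes, so they only describe the order of codes.

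The paired libraries of most codes agreed on this order. Those of N3 gave summed levels of 1445 and 1427 CPM, those of N2 5793 and 6051, and those of L1 2900 and 3286. Those of G1 gave 2199 and 1131, the second from 473 counts on the 50 genes. E2 had 1041 counts on the 50 genes in all, 22 of them at 10 counts or fewer and Kif4 at 0, so single values of E2 carry large counting error.

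N3 also stood apart outside the mitotic genes. Its summed level of 12 B-cell genes was 9500 CPM, against 1165 to 2353 in the other FOXP3 codes. The sum was 1052 to 2192 in LNGFR and 1669 to 3814 in WT Treg. Ighm alone averaged 443 CPM in LNGFR and 2638 in WT Treg. Of the 12 genes, 10 had a fold below 0 in WT Treg against LNGFR and 2 above. In every code but E2, none of the 12 was at 0. In N3 Cd79a was 994 CPM and Ms4a1 834. Its 8 CD4 T-cell genes summed to 3855 CPM, which was 64.9% to 74.5% of the level in each other FOXP3 code, while its mitotic genes were at 24.6% to 35.9% of theirs. Germinal-centre B-cell genes summed to 160 CPM in N3 against 62.9 to 98.9 in the other FOXP3 codes. Their range was 80.5 to 119 in LNGFR and 114 to 122 in WT Treg. Plasma-cell genes summed to 669 CPM in N3 and 326 to 401 in the other FOXP3 codes. They ran from 564 to 751 in LNGFR and 192 to 434 in WT Treg. Mouse Foxp3 was 162 CPM in N3 against 217 to 313 in the other FOXP3 codes. The part of these differences in the mitotic level of N3 was not tested.

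**Figure D2:**
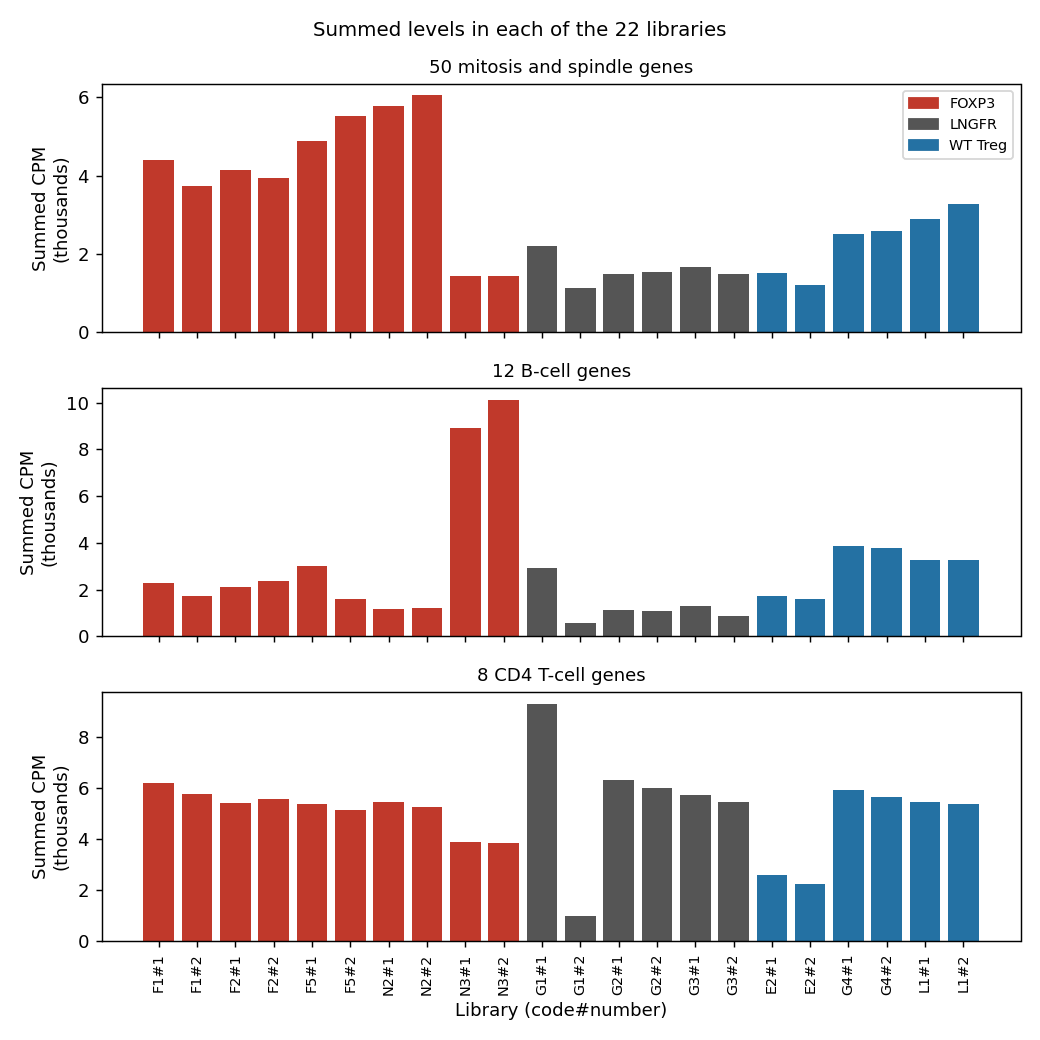
Summed CPM (in units of 1000, y axis) in each of the 22 libraries (x axis, code and library number, coloured by group) for the 50 mitotic genes, 12 B-cell genes and 8 CD4 T-cell genes. Both libraries of N3 are low in the first panel, at 1445 and 1427 CPM, and highest in the second, and the second library of G1 and both of E2 are low in the third.

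Over all libraries the depth was 332570 to 5453375 counts, and 1154626 (E2) to 10376164 (F2) per code. E2 and, less so, G1 were also marked by a high level of the gene Gm10800, at 654849 and 54434 CPM. These values are scaled by the TMM factors, 0.704 in E2 and 0.980 in G1, and are not shares of the counts. Mouse Foxp3 was 704 to 1630 CPM in WT Treg, 162 to 313 in FOXP3 and 42.7 to 143 in LNGFR; counts on the mouse gene cannot show the human transgene apart from it.

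The first comparison asks how cells given FOXP3 differ from cells given the empty vector. Hmmr and Bub1 rose and no gene fell: 2 of the 50 passed an adjusted p of 0.05 in edgeR's quasi-likelihood test, where 0.168% of all genes tested were called higher and 0.375% lower. Both calls sat close to the threshold: of 21 alternatives Hmmr lost its call in 12 and Bub1 in 13, while both kept a fold above 0. The other 48 shared the direction but not the call, apart from Pttg1: 49 of 50 fitted log2 fold changes were above 0, with a median of 1.75 against -0.02 over all genes. At an unadjusted p of 0.05 the count was 44 higher and 0 lower, against a background of 4.81% and 5.50%. In 7 genes (Aurkb, Incenp, Cdca8, Bub1, Hmmr, Racgap1 and Anln) every FOXP3 code, N3 included, exceeded every LNGFR code, and in none was every code lower, where 4.35% and 4.67% of all genes did so. These genes share their codes and move together in a cell cycle, so the counts are not 50 separate observations.

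Hmmr encodes a microtubule-binding protein that helps to focus spindle poles (chr11:40701395-40733422, minus strand, mm10). Its level was 23.6 CPM in F1, 31.2 in F2, 36.3 in F5, 50.5 in N2 and 11.98 in N3, against 8.07, 5.12 and 6.83 in G1, G2 and G3. The 2 groups did not overlap, and even N3 stood above G1. The means were 30.7 ± 14.4 (SD, n = 5) and 6.67 ± 1.48 CPM (n = 3), a log2 fold change of 2.22 ± 0.43 (SE) with an adjusted p of 0.0414 (edgeR). In WT Treg Hmmr was 13.2 in E2, 15.4 in G4 and 22.9 in L1, above every LNGFR code (log2 fold change 1.42 ± 0.46, edgeR adjusted p = 0.190).

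Bub1 encodes the checkpoint kinase that marks centromeres and recruits further checkpoint proteins (chr2:127801122-127831865, minus strand, mm10). It was at 19.1, 31.7, 33.8, 43.8 and 8.71 CPM in F1, F2, F5, N2 and N3 and at 3.03, 4.16 and 7.31 in G1, G2 and G3. N3 was close to G3, and the groups still did not overlap. The log2 fold change was 2.45 ± 0.50 (edgeR adjusted p = 0.0465). In WT Treg Bub1 was 27.6 in E2, 17.0 in G4 and 19.0 in L1, again above every LNGFR code, and here the fold was 2.04 ± 0.53 (edgeR adjusted p = 0.101).

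Of the 7 genes of mitotic entry, 6 had an unadjusted p under 0.05 and none an adjusted one (median log2 fold change 1.65). Cdk1, the kinase that triggers mitosis, was 81.1, 62.1, 101, 103 and 16.0 CPM in F1, F2, F5, N2 and N3, and 37.0, 14.2 and 19.1 in G1, G2 and G3. F1, F2, F5 and N2 were above the LNGFR range and N3 inside it (log2 fold change 1.65 ± 0.54, edgeR adjusted p = 0.247). Ccnb1, its cyclin partner, was 49.0, 45.06, 69.2, 83.1 and 11.8 CPM in the FOXP3 codes and 11.1, 13.3 and 11.99 in the LNGFR codes, in the same order of codes. Its LNGFR codes were close together and N3 fell among them (2.08 ± 0.55, edgeR adjusted p = 0.133). Cdc25c, the phosphatase that activates Cdk1, was 20.5, 16.9, 23.6, 26.4 and 3.48 CPM against 3.70, 1.92 and 2.997. N3 lay just under G1, and the fold missed the threshold narrowly (2.68 ± 0.56, edgeR adjusted p = 0.0535). Cyclin A2 (Ccna2), which acts in S phase and in entry to mitosis, had a log2 fold change of 2.74, and Cks2, a small Cdk-binding subunit, only 0.64. Ccnb2, the second B-type cyclin, had 1.46, and Foxm1, the transcription factor that drives this programme, 1.44.

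Among the mitotic kinases, Aurka, the kinase of centrosomes and spindle poles, was 35.1, 24.4, 42.1, 52.1 and 10.2 CPM in the FOXP3 codes and 10.8, 8.64 and 10.2 in the LNGFR codes. N3 was indistinguishable from the LNGFR codes, which differed little from each other (log2 fold change 1.74 ± 0.47, edgeR adjusted p = 0.149). The fold was 2.37 for Plk1, the Polo-like kinase, and 2.12 for Tpx2, which activates Aurora A. In the chromosomal passenger complex, which corrects faulty attachments, Aurkb, its kinase, was 96.3, 64.1, 105, 114 and 22.6 CPM against 12.8, 16.2 and 20.9. N3 was only just above G3 (2.26 ± 0.51, edgeR adjusted p = 0.0750). Its partners Incenp (the scaffold), Cdca8 (borealin) and Birc5 (survivin) had folds of 1.41, 2.02 and 1.54, and N3 was above every LNGFR code for all but Birc5, where it was below.

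The spindle checkpoint genes split. Besides Bub1, Ttk, the kinase that starts checkpoint signalling, had the largest fold of all 50, 2.92 (edgeR adjusted p = 0.0684), at 14.2, 16.0, 20.4, 25.8 and 2.18 CPM against 1.68, 2.24 and 2.16. Bub1b, the pseudokinase of the checkpoint complex, had 1.76 and Mad2l1, which binds Cdc20, 0.88. Bub3, the adaptor that carries Bub1 to kinetochores, stood at 0.13, with 246, 221, 219, 237 and 152 CPM in the FOXP3 codes and 255, 149 and 186 in the LNGFR codes. The 2 groups overlapped almost whole.

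In the anaphase group, Cdc20 was 89.5, 90.03, 120, 128 and 28.5 CPM in the FOXP3 codes and 23.5, 25.1 and 30.6 in the LNGFR codes. N3 was between G2 and G3 (log2 fold change 1.79 ± 0.51, edgeR adjusted p = 0.171). Ube2c, the ubiquitin-conjugating enzyme of the complex, had 1.35 and Espl1, separase, 1.18. Pttg1, securin, which holds separase inactive, was the only gene below 0, at -0.46 ± 0.34 (edgeR adjusted p = 0.685). It was 76.6, 70.4, 63.7, 70.2 and 47.0 CPM in the FOXP3 codes and 143, 63.2 and 65.7 in the LNGFR codes, so that G1 was the one high code and N3 the lowest.

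Kinetochore genes had a median log2 fold change of 1.36, with 6 of 7 at an unadjusted p under 0.05. Nuf2, part of the Ndc80 complex that grips microtubules, was 40.4, 30.2, 56.5, 56.3 and 6.64 CPM against 6.39, 9.12 and 7.67, with N3 inside the LNGFR range (2.28 ± 0.55, edgeR adjusted p = 0.0890). Its partners Ndc80 and Spc25 had 1.27 and 1.43, the motor Cenpe 1.63, the large kinetochore protein Cenpf 1.36, the centromeric histone Cenpa 1.08 and the spindle protein Knstrn 1.02.

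All 5 spindle and chromosome kinesins had an unadjusted p under 0.05. Kif22, which pushes chromosome arms to the equator, was 83.1, 77.1, 95, 126 and 18.8 CPM in the FOXP3 codes and 14.5, 16.6 and 22.3 in the LNGFR codes. Again N3 alone lay inside the LNGFR range (2.16 ± 0.51, edgeR adjusted p = 0.0839). Kif11, the motor that separates the poles, had 2.09, Kif2c, a microtubule depolymerase, 1.95, Kif4, a chromosome motor, 1.79 and Kif15, which backs up Kif11, 1.67. Nusap1, a microtubule-bundling protein, had 2.35.

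Of the 6 cytokinesis genes, Anln, which scaffolds the contractile ring, was 8.45, 15.6, 16.3, 25.5 and 7.95 CPM against 6.72, 3.52 and 2.88. F1 and N3 were the low FOXP3 codes, and both were above G1 (1.80 ± 0.46, edgeR adjusted p = 0.113). The other 5 ran from 1.45 for Ect2, the activator of RhoA at the cleavage furrow, to 2.15 for Kif20a, a central spindle motor. Racgap1, Prc1 and Kif23, which build the central spindle, had 1.97, 1.82 and 1.63.

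Condensin genes divided by subunit. Ncapg, which belongs to condensin I, was 53.3, 49.2, 76.3, 76.7 and 10.9 CPM in the FOXP3 codes and 11.1, 13.3 and 15.0 in the LNGFR codes, with N3 below all 3 (2.01 ± 0.50, edgeR adjusted p = 0.102). Ncaph and Ncapd2, of the same complex, had 2.16 and 1.69. The core ATPases Smc2 and Smc4, shared by both condensins, had only 0.59 and 0.56. Top2a, the topoisomerase that untangles sister chromatids, was 158, 190, 253, 267 and 61.95 CPM against 53.8, 66.6 and 77.3 (1.49 ± 0.47, edgeR adjusted p = 0.213). Mki67, the proliferation antigen that coats mitotic chromosomes, was 165, 192, 234, 283 and 50.4 CPM against 51.1, 51.7 and 56.2. Its LNGFR codes lay within a few CPM of each other and N3 just under them (1.80 ± 0.45, edgeR adjusted p = 0.102).

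**Figure D3:**
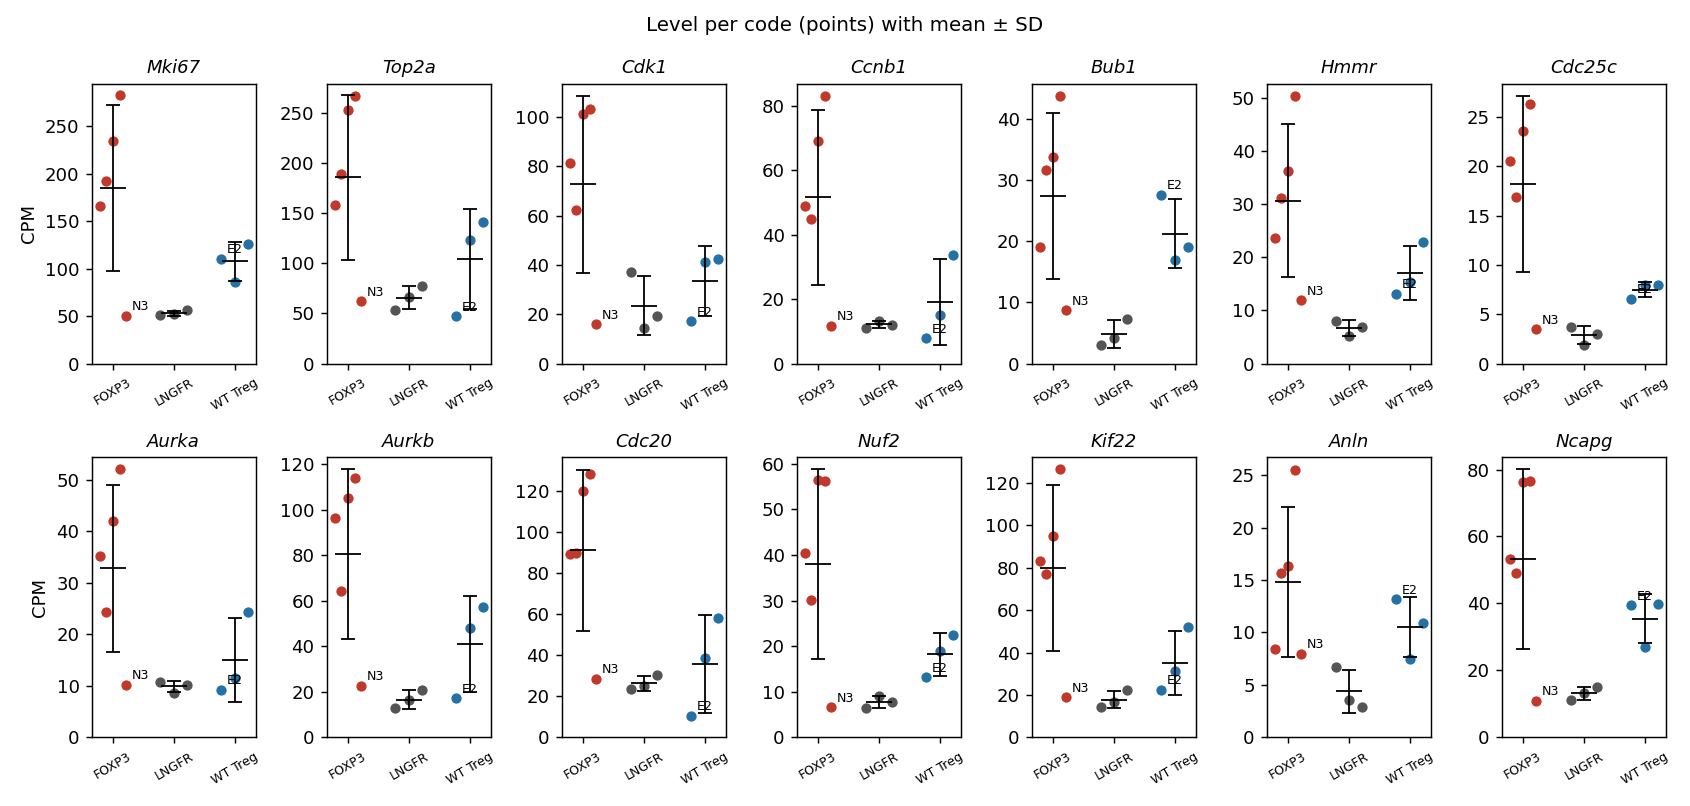
CPM (y axis, from 0) of 14 of the genes in each code, one point per code and coloured by group, with the group mean and SD (n = 5 FOXP3, 3 LNGFR and 3 WT Treg). In each panel N3 is the low FOXP3 point, beside or near the LNGFR points (for Hmmr, 11.98 CPM against 8.07 in G1).

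Per kb of annotated exon, Ccnb2 had the highest FOXP3 mean level of the 50 genes, at 108 CPM per kb, followed by Smc4 at 59.5 and Cdc20 at 48.9, and Anln the lowest at 1.63. The 2 called genes were low in this order, Bub1 at 6.30 and Hmmr at 5.66 CPM per kb. In the LNGFR codes the highest was Pttg1, at 45.2. For 16 genes some exonic bases are shared with another gene, the largest shares being 29.3% of Kif20a with Cdc23 and 22.8% of Ube2c with Tnnc2. Whether reads were counted by strand is not given in the sources used here, so counts of these genes may include their neighbours. Ccnb1, Ccnb2, Kif22 and Kif4 have annotated pseudogenes named after them that could take or give reads. Pseudogenes under other names were not searched.

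Wild-type regulatory T cells were compared with LNGFR cells in the same fit and thus share the LNGFR codes with the first comparison. No gene of the 50 was called, where 0.627% of all genes were called higher and 0.673% lower. The fold was above 0 in 44 of 50, with a median of 0.81 against 0.08 over all genes. At an unadjusted p of 0.05 the count was 11 higher and 0 lower (background 8.16% and 6.66%). Every WT Treg code exceeded every LNGFR code in 15 genes and in none was every code lower (background 7.80% and 8.82%): Cdc25c, Bub1, Ttk, Cenpe, Nuf2, Kif11, Kif15, Kif2c, Kif22, Hmmr, Kif23, Anln, Smc4, Ncapg and Mki67. In E2, 22 of the 50 genes had 10 counts or fewer, so for low genes its place above LNGFR rests on few reads. Kif2c, for example, was 6.58 CPM in E2 against 6.35 in G3. Mki67 was 111 CPM in E2, 85.7 in G4 and 126 in L1, a log2 fold change over LNGFR of 1.02 ± 0.47 (edgeR adjusted p = 0.335). Ncapg was 39.5, 27.0 and 40.0 CPM in the same codes (1.41 ± 0.53, edgeR adjusted p = 0.255). For Ccnb1 the codes disagreed, at 7.90, 15.2 and 33.8 CPM, and E2 lay under all LNGFR codes. Cdc20 did likewise, at 10.5, 38.5 and 58.1 CPM. L1 was the highest WT Treg code in 41 genes and E2 the lowest in 41. Among the marker lists Ighm, the immunoglobulin mu heavy chain, was the one gene called here, at 2638 ± 1094 CPM against 443 ± 54.0 in LNGFR (2.57 ± 0.47, edgeR adjusted p = 0.0162), while the median of the 12 B-cell genes was -2.07; its part in the mitotic values was not tested.

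FOXP3 cells were then set against wild-type regulatory T cells, which tests whether the engineered cells differ from the natural ones. No gene was called (background 0.136% higher and 0.123% lower). The fold was above 0 in 49 of 50, Smc4 being the exception at -0.33, with a median of 0.92 against 0.01 over all genes, and 12 genes against none had an unadjusted p under 0.05 (background 4.38% higher and 12.1% lower). The smallest adjusted p was 0.175, for Mad2l1 (log2 fold change 1.04, edgeR). No gene separated every code in either direction, where 6.12% and 6.25% of all genes did. Code by code, N2 stood above all 3 WT Treg codes for 48 genes, F5 for 47, F2 for 43 and F1 for 40. N3 did so for none and was below all 3 for 21. These counts for single codes again have no background over all genes. Ccnb1 had a fold of 1.34 ± 0.54 (edgeR adjusted p = 0.219) and Bub1 of 0.42 ± 0.45 (edgeR adjusted p = 0.687). For Bub1 the WT Treg level in E2, 27.6 CPM, was above F1 and N3.

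**Figure D4:**
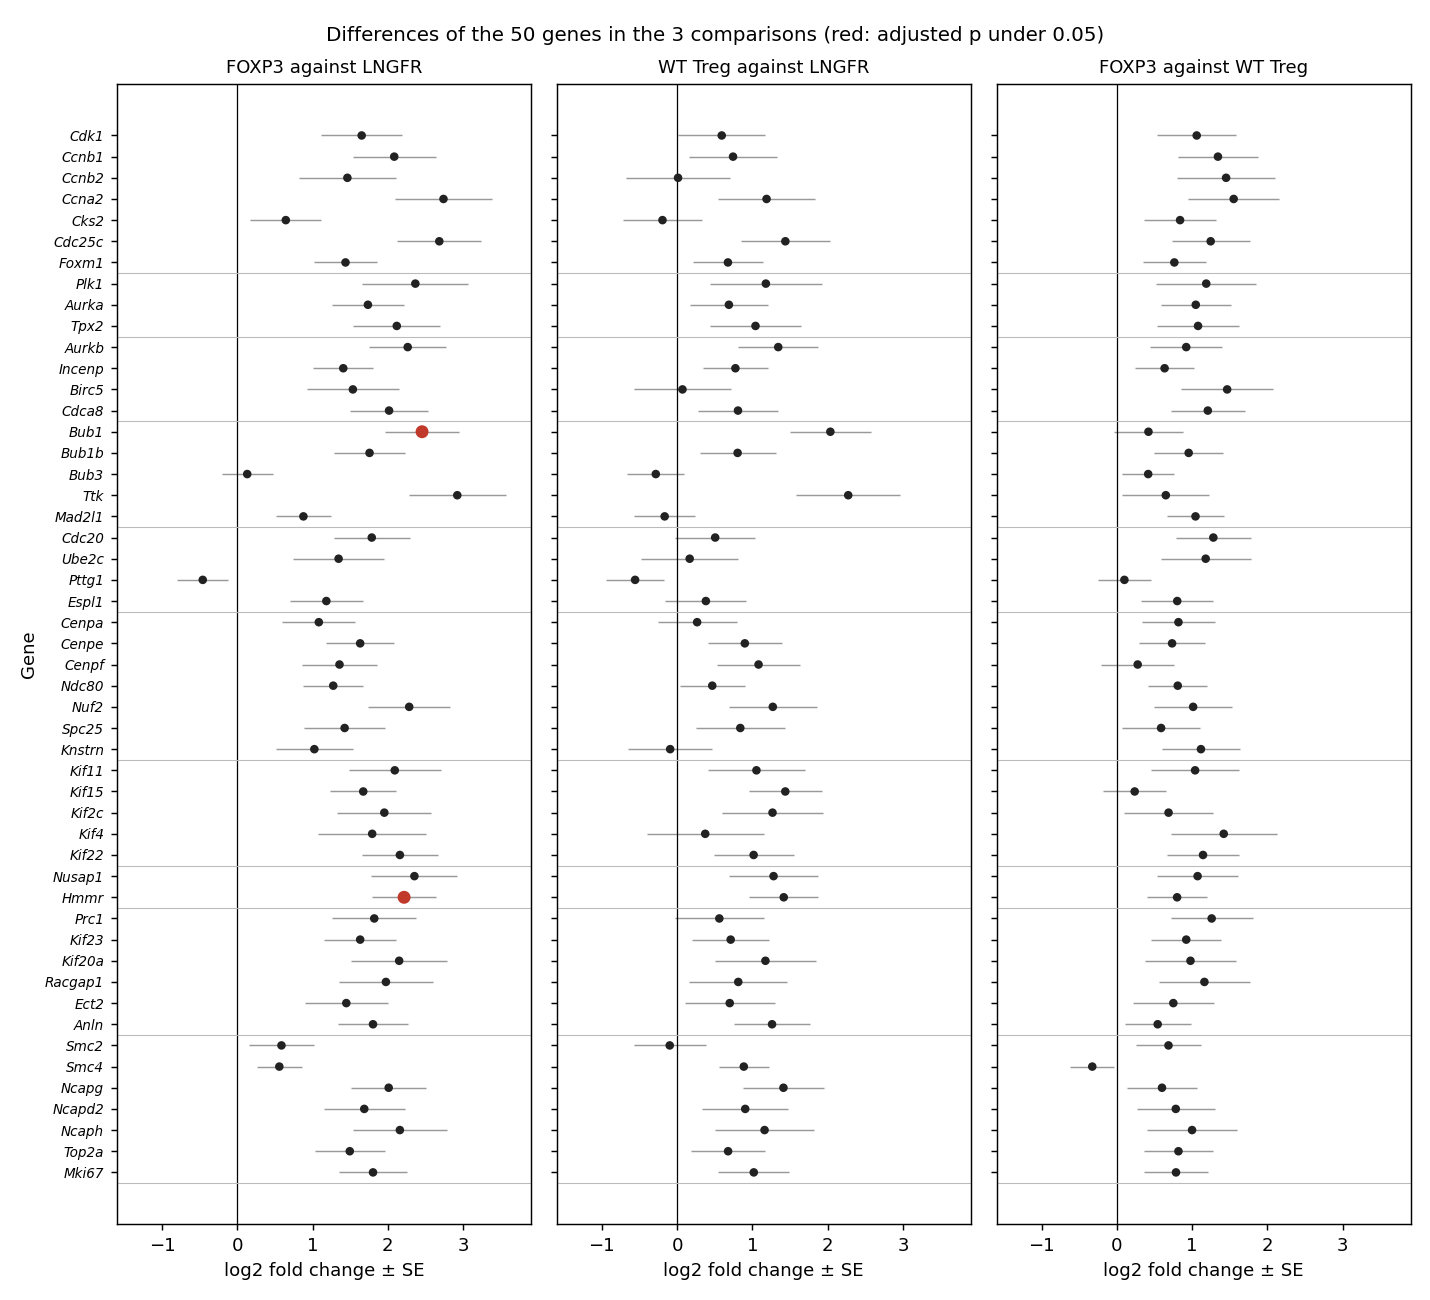
Log2 fold change with its SE (x axis) of each of the 50 genes (y axis, by role) in the 3 comparisons. Hmmr (2.22) and Bub1 (2.45) in the first panel are the genes with an adjusted p under 0.05, and Pttg1 is the one gene left of 0 there.

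How many genes passed the threshold depended on N3 and on the test. N3 was singled out with its low cell-cycle level known, so counts without it describe the other codes and are no independent support. Without N3, 31 of the 50 were called higher in FOXP3 than in LNGFR (background 1.08%), and without E2, G1 and N3, 49 were (background 6.61%). With all codes, DESeq2 called 30 (background 1.44%) and limma-voom with quality weights, which gives deviating codes less weight, 41 (background 3.38%). Leaving out only both libraries of E2 and the second of G1 gave 9 (background 0.657%), leaving out the code E2 gave 8 (background 0.585%) and leaving out G4 gave 1 (background 0.0935%). Without the filter on low counts 37 were called (background 0.394% of 46911 genes), and with only the FOXP3 and LNGFR codes in the fit 3 (background 0.343%). The first library of each code alone gave 2 (background 0.337%), Ccnb1 and Ccna2, neither of them called with all libraries. By contrast no gene was called when any of F1, F2, F5, N2, G1, G2, G3 or L1 was left out. The background in these fits ran from 0.0052% without G2 to 0.0988% without G1. For wild-type regulatory T cells against LNGFR, DESeq2 called 3 (background 2.60%), limma-voom 3 (background 2.88%), the fit without the filter 2 (background 1.53%), the fit without N3 3 (background 0.866%) and the fit without E2, G1 and N3 23 (background 4.19%). For FOXP3 against wild-type regulatory T cells limma-voom called 1 (background 2.28%), the fit without the filter 15 (background 0.861% higher and 6.84% lower) and the fit without E2, G1 and N3 26 (background 3.85%). None of these fits called any of the 50 genes lower.

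**Figure D5:**
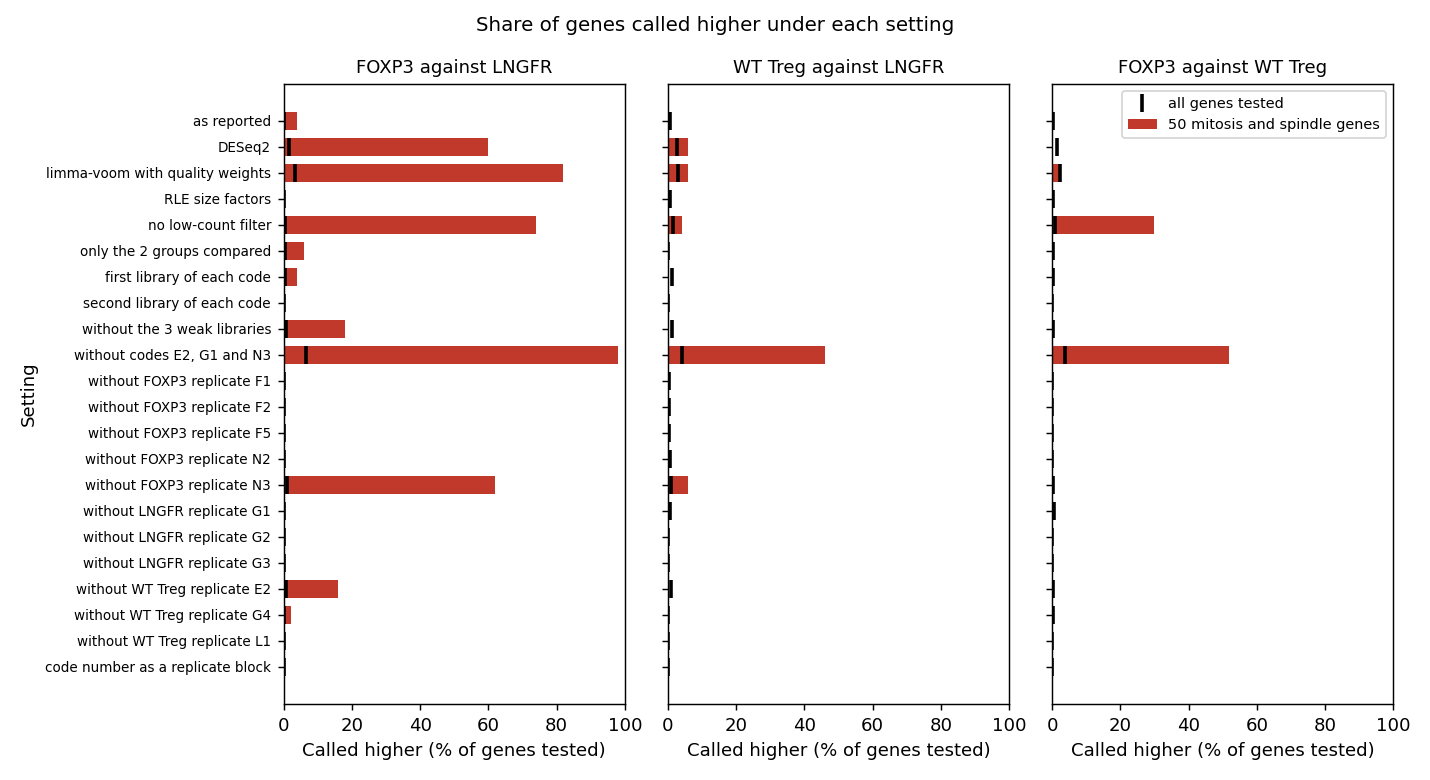
Share of the 50 genes called higher (bars, percent, x axis) and of all genes tested (black ticks) under each setting (y axis) in the 3 comparisons. In the first panel the longest bar is that without E2, G1 and N3, at 49 of 50 genes.

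Related cell-cycle lists, also chosen with earlier results of these data known, had folds in the same direction. Of 55 further mitosis genes, all 55 had a fold above 0 in FOXP3 against LNGFR (median 1.47), 46 had an unadjusted p under 0.05 and none was called, where 48.9% of all genes tested were above 0 and 4.81% had such a p and were higher; the smallest p-values were those of Ckap2l, a spindle protein (2.75 ± 0.57, edgeR adjusted p = 0.0561), and Pbk, a mitotic kinase (2.30 ± 0.50, edgeR adjusted p = 0.0623). Of 42 genes of G1/S and DNA replication, 41 were above 0 (median 1.06, 28 higher at an unadjusted p under 0.05, none called), the smallest p-values being those of Mcm10, a replication initiation factor, at 2.22 ± 0.51 (edgeR adjusted p = 0.0786), and E2f8, a repressor of the E2F family, at 2.24 ± 0.56 (edgeR adjusted p = 0.109). N3 was at 31.8% to 43.5% of the other FOXP3 codes for the former list and 42.3% to 52.6% for the latter.

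Genes of quiescence and arrest did not share the pattern: of 13 tested, 4 were above 0 and 9 below (median -0.22, none called), with Ccng2, a cyclin of arrested cells, at 0.76 ± 0.29 (edgeR adjusted p = 0.366) and Btg1, an antiproliferative factor, at -0.59 ± 0.32 (edgeR adjusted p = 0.580). N3 summed to 1263 CPM over this list and the other FOXP3 codes to 1063 to 1235. A list of 15 genes held MuvB and DREAM factors, which hold or release the cell-cycle promoters, with Rb1 and the NF-Y genes Nfya, Nfyb and Nfyc. Its median over all 15 was 0.39, with 13 above 0 and none called. Mybl2, the activating partner of MuvB, had 1.57 ± 0.54 (edgeR adjusted p = 0.279) and Lin9, a core subunit, 0.88 ± 0.36 (edgeR adjusted p = 0.403). In wild-type regulatory T cells against LNGFR the medians were 0.89 for the further mitosis genes, 0.44 for G1/S and -0.17 for quiescence. The list with MuvB, DREAM and NF-Y genes had 0.30. In FOXP3 against wild-type regulatory T cells the medians were 0.59, 0.72, 0.10 and -0.05, in the same order. No gene of these lists was called.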

How the data were processed

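The 22 libraries were made from sorted cells by an oligo(dT) and tagmentation protocol with 18 PCR cycles and no molecular identifiers, per the labels' protocols, so counting errors do not include amplification. The submitters' processing notes name STAR 2.7.3a, featureCounts from Subread 2.0.0 and the builds mm10 and GRCm38; no source used here gives the annotation, strand setting or treatment of reads with several hits. The deposited values are raw counts per gene. Counts of both libraries of a code were summed, and genes were tested in edgeR 4.0.16 (R 4.3.3) with filterByExpr, TMM factors and the robust quasi-likelihood test over 3 groups in 1 fit, with Benjamini-Hochberg adjustment at 0.05 over 15462 genes; SE is the log2 fold change divided by the root of F. The common biological coefficient of variation was 0.491. Alternatives used DESeq2 1.42.0, limma 3.58.1, other filters, scalings and sets of libraries. The genes and lists were chosen with earlier results of these data known. Genes given in full in every code are Mki67, Top2a, Cdk1, Ccnb1, every called gene and, per role, the gene with the smallest p in FOXP3 against LNGFR; in other lists the called genes or, with none, the 2 with the smallest p. Exon lengths and overlaps came from the GENCODE annotation of GRCm38, promoters from RefSeq (GRCm38.p6). For marker lists, the CD4 T-cell genes had a median log2 fold change of -0.20 in FOXP3 against LNGFR, B-cell genes 1.03, plasma-cell genes -1.25, germinal-centre genes -0.24, CD8 T and NK genes -1.31 and myeloid genes 0.69, with none called.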

Additional observations from a re-analysis of the deposited data

Results flagged for a closer look

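N3 stood apart from the other 4 FOXP3 codes by Dixon's ratio, the gap from a code to its nearest neighbour divided by the range of the group, whose 95% limit for 5 values is 0.71. On log2(CPM+1), the ratio was 0.723 for Cdk1, 0.764 for Cdc25c, 0.758 for Cdc20, 0.737 for Kif22 and 0.767 for Ncapg, and 0.724 for the mean over the 50 genes. Over all 50 genes N3 passed the limit on the low side in 19, or 38.0%, and on the high side in none. Over all 15462 genes tested N3 passed it on the low side in 3.40% and on the high side in 2.68%, and any code did in 9.21%. Chance passes it in about 1 in 20 groups, and these genes share their libraries, so the 19 are not separate occurrences. Both libraries of N3 gave nearly the same summed level, 1445 and 1427 CPM.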

How the results depend on the processing

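With 1 code left out, the median of the 50 log2 fold changes ran from 1.49 to 1.95 for FOXP3 against LNGFR, 0.47 to 1.02 for WT Treg against LNGFR and 0.74 to 1.33 for FOXP3 against WT Treg. It kept its sign under all 21 alternatives, between 1.36 and 2.02 for FOXP3 against LNGFR, 0.47 and 1.06 for WT Treg against LNGFR and 0.73 and 1.33 for FOXP3 against WT Treg, and no alternative called any of the 50 lower. The number called higher did not hold. For FOXP3 against LNGFR it was 2 with all codes (background 0.168%), 30 by DESeq2 (background 1.44%) and 41 by limma-voom (background 3.38%). It was 37 without the filter on low counts (background 0.394%) and 9 without the 3 weak libraries (background 0.657%). Without E2, G1 and N3 it was 49 (background 6.61%). RLE size factors gave 0 (background 0.116%). The second library of each code alone gave 0 (background 0.0461%) and the first 2, other genes than the main ones (background 0.337%). With 1 code left out the number called ran from 0 to 31, the highest without N3 (background 1.08%). It was 8 without E2 (background 0.585%) and 1 without G4 (background 0.0935%). For WT Treg against LNGFR, 0 became 3 by DESeq2 (background 2.60%), 3 by limma-voom (background 2.88%) and 2 without the filter (background 1.53%). It became 23 without E2, G1 and N3 (background 4.19%), and 0 to 3 with 1 code left out, the 3 without N3 (background 0.866%). For FOXP3 against WT Treg, 0 became 1 by limma-voom (background 2.28%) and 15 without the filter (background 0.861% higher and 6.84% lower). It became 26 without E2, G1 and N3 (background 3.85%). With any code left out it stayed 0 (background 0.0158% without L1 to 0.414% without G1). The cause was not tested, beyond the construction of each alternative. The adjusted p of Hmmr in FOXP3 against LNGFR ranged from 5.7e-05 to 0.381 and that of Bub1 from 1.3e-05 to 0.439. Cdc20 in WT Treg against LNGFR changed sign without L1, to -0.0041 (edgeR adjusted p = 0.999), and reached 0.88 without E2. Some codes of different groups share a number (F1, G1 and L1, for example), but no label ties it to a litter or batch. Across genes, deviations from the group mean correlated between -0.301 and 0.114 in the 9 same-number pairs, over 0.1 in 1. Pairs with different numbers ran from -0.352 (G3 with E2) to 0.365 (G1 with E2). In groups of 3 codes 1 deviating code moves every deviation, so these correlations cannot decide the pairing. For want of a label the numbers were not taken as pairs. With the code number as a replicate block, an alternative added after seeing the data, edgeR called 0 of the 50 genes in each comparison. The background called higher was 0.00647%, 0.0194% and 0.00647%, and the medians were 1.36, 0.48 and 0.92, in the order above. Under the block, Cdk1 in WT Treg against LNGFR changed sign to -0.13 (edgeR adjusted p = 0.953) and Bub1 in FOXP3 against WT Treg to -0.00023 (edgeR adjusted p = 0.9995). Depth limits E2, with 1041 counts on the 50 genes, and the second library of G1, with 473.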
